A study of Mus musculus with 8 samples.

Results

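Mfap1a, Mfap1b, Wdr76, Frmd5, Ctdspl2, Eif3j1, Spg11 and B2m are 8 genes of mouse chromosome 2 that lie between positions 121290025 and 121983594 of the GRCm39 genome, and all 8 were found among the 18058 rows of the deposited gene table. They were followed in retinae of mice that lack 4 extracellular matrix genes, to ask whether the higher levels of Mfap1b and Spg11 are shared by the paralog Mfap1a and by the genes around them. Mfap1b and Spg11 were put in the group because of their difference between the genotypes in these same libraries, so that difference is described here without a test. Mfap1a was taken as the paralog of Mfap1b, and the other 5 genes were taken for their position.

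The retinae came from adult animals of both groups. WT mice were of the inbred strain 129S2/SvPasCrl, which the study's methods call the background strain. Quadruple KO mice carried knockout alleles of the proteoglycan genes Bcan (brevican) and Ncan (neurocan) and of the tenascin genes Tnc and Tnr. The quadruple line was made by crossing lines with a single KO each, and the sources used here do not describe the WT animals as its littermates. None of the 4 targeted genes lies on chromosome 2. Total RNA of 4 retina samples per genotype was sequenced, labelled as coming from 4 mice each, and the libraries carry the letters A to D in each genotype. The study's methods state that retinae were pooled before extraction, and whether a pool joined the eyes of a single animal or of several was not given in the sources used here. The sex of each animal and any batch of dissection or sequencing were not given in the sources used here. The tissue was whole retina, so more RNA per cell and more cells of a type cannot be told apart.

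The normalized counts of the targeted genes Ncan, Bcan and Tnr went with the labels. Ncan lay between 569 and 789 in WT and between 0 and 0.853 in quadruple KO. Bcan averaged 258 ± 54.7 normalized counts in WT and 15.0 ± 4.79 in quadruple KO (SD, n = 4 each), and Tnr averaged 5856 ± 340 and 2509 ± 95.1. Tnc did not pass the test, with 1265 ± 330 against 1175 ± 104 (limma adjusted p = 0.83), and which exons its allele lacks was not analysed here. The study reported that part of the Tnc sequence is lost in quadruple KO. Its western blots of postnatal quadruple KO retinae did not detect Tnc protein. The summed normalized counts were 36134196 to 42201667 per library. WT B and WT C stood apart from the other 6 libraries: mitochondrial mRNA took 0.402% and 0.341% of their normalized counts, against 1.28% to 1.64% elsewhere. Signal recognition particle RNA took 19.3% and 14.8%, against 6.82% to 8.69% elsewhere. The median absolute log2 difference between WT B or WT C and WT A or WT D was 0.34 to 0.39. It was 0.13 between WT A and WT D, 0.17 between WT B and WT C, and 0.11 to 0.12 among quadruple KO libraries. The log2 fold changes that follow are therefore given with all 4 WT libraries and with WT A and WT D alone. Markers of rods, bipolar cells and Müller glia were detected in both genotypes. Markers of lens and retinal pigment epithelium were detected too and were uneven between libraries. Among them, Cryaa and Rgr were named after their values were seen. The lens gene Cryaa had 33.5 normalized counts in WT A, 1154 in WT B, 11.7 in quadruple KO B and 865 in quadruple KO C. The pigment epithelium gene Rgr had 731 in WT A and 2610 in WT D.

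The genes have unlike roles. MFAP1 was named for elastic microfibrils, but the protein encoded by Mfap1a and Mfap1b is best known as a nuclear component of the spliceosomal B complex. Spg11 encodes spatacsin, which acts with spastizin and the adaptor complex AP-5 in the re-formation of lysosomes, and its loss in people causes a hereditary spastic paraplegia. WDR76 is a substrate adaptor of the CUL4-DDB1 ubiquitin ligase, FRMD5 is a FERM-domain protein at cell junctions, CTDSPL2 is a small phosphatase of the CTD family, eIF3j is a loosely bound subunit of translation initiation factor eIF3, and B2M is the light chain of MHC class I molecules.

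The Mfap1 paralogs cannot be told apart over their coding part. Their coding sequences on GRCm39 were both 1317 bases long, coded for 439 amino acids, and differed at 0 positions. The first 300 coding bases are shown because they are the same in both genes, with the start codon in capitals. They span 2 coding exons on the minus strand, at chr2:121333130-121337022 for Mfap1a and at chr2:121300577-121304393 for Mfap1b.
Mfap1a and Mfap1b: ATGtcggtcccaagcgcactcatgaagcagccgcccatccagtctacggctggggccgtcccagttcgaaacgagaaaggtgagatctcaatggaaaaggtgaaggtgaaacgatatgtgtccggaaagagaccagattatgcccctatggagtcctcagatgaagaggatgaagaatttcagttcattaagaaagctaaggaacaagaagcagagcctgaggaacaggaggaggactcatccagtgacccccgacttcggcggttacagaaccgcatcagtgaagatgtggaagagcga

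A read from this stretch fits both genes equally well. Over the whole reference transcripts, 47.1% of the 75-base windows of Mfap1a (4198 bases) were found without a mismatch in Mfap1b, and 59.1% of those of Mfap1b (3362 bases) were found in Mfap1a. Of the windows particular to one transcript, 95.1% in Mfap1a and 89.7% in Mfap1b started after the coding part. The value of either paralog thus depends on how the estimation divided the shared reads, and the value of Mfap1a is not independent of that of Mfap1b.

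Mfap1b (chr2:121290025-121304548, 7 exons) and Mfap1a (chr2:121321107-121337148, 7 exons) lie in the same direction on the minus strand, 16558 bases apart. Wdr76 (chr2:121337190-121375341) starts on the plus strand only 41 bases beyond the start of Mfap1a. The bases between these 2 starts, chr2:121337149-121337189 on the plus strand, are shown because both genes are transcribed away from them, and they hold no capitals.
Between Mfap1a and Wdr76: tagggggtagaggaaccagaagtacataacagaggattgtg

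Frmd5 (chr2:121375076-121637568) follows on the minus strand and Ctdspl2 (chr2:121786429-121847466) on the plus strand, with 148860 bases between them. Eif3j1 (chr2:121858606-121906334, plus strand) and Spg11 (chr2:121883834-121948891, minus strand) overlap by 22501 bases in opposite directions, and 1107 exonic bases of their reference transcripts are shared, 20.4% of Eif3j1 and 14.4% of Spg11. Wdr76 and Frmd5 run in opposite directions too and share 266 exonic bases, but none in their reference transcripts. B2m (chr2:121977957-121983594, plus strand) lies 29065 bases beyond Spg11. The reference transcript of Mfap1b also shares 205 bases with Hypk on the opposite strand, and all its annotated exons together share 896 bases each with Hypk and with Serf2. The library kit keeps the strand, but whether the counting used it was not given in the sources used here, so reads of such overlapping genes may have been divided between them.

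Mfap1b was higher in quadruple KO than in WT. The WT libraries A to D had 2150, 1921, 2059 and 2308 normalized counts, and the quadruple KO libraries had 2513, 2504, 2667 and 2635. No WT library reached the lowest quadruple KO library. The means were 2110 ± 162 and 2580 ± 83.5 (SD, n = 4 each), a log2 fold change of 0.29 (SE 0.07). Against WT A and WT D alone the log2 fold change was 0.21, and the quadruple KO mean was 115.7% of the mean of WT A and WT D, compared with 122.3% of the mean of all WT libraries.

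Its paralog Mfap1a had 2904, 2348, 2645 and 2939 normalized counts in WT A to D and 3112, 3053, 3404 and 3172 in quadruple KO A to D. The genotypes did not overlap here either, but the step from the highest WT library to the lowest quadruple KO library was small, and WT B and WT C were the lowest libraries. The means were 2709 ± 274 and 3185 ± 154 (SD, n = 4 each), and the log2 fold change of 0.24 (SE 0.09) did not pass the test over all genes (limma adjusted p = 0.30). With WT A and WT D alone it was 0.12 (limma adjusted p = 0.43). Of all genes tested, 6.16% were higher in this way without overlap, 3.58% were lower without overlap, and 9.74% fell in either class. Of the 6 members not chosen on this contrast, 1, Mfap1a, was in the first class and 0 were in the second. Because of the shared reads, the place of Mfap1a is not independent of Mfap1b, which was chosen on this contrast.

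The sum of both paralogs holds the reads they share, however these were divided between them. The part of the normalization, and of reads exchanged with Hypk or Serf2, in this sum was not tested. The sum lay between 4269 and 5247 normalized counts in WT and between 5557 and 6071 in quadruple KO. Its means were 4819 ± 430 and 5765 ± 230 (SD, n = 4 each), with a log2 ratio of 0.26. The genotypes did not overlap in the sum. Mfap1b, which was put in the group for its difference between these libraries, makes up much of the sum. The sum is therefore not free of that choice and is a description only. The difference of the means was 946 normalized counts with all WT libraries and 614 with WT A and WT D alone, whose mean was 5151. Mfap1b made up 42.5% to 44.99% of the sum in WT and 43.9% to 45.4% in quadruple KO, with means of 43.8% ± 1.004 and 44.8% ± 0.622, and these ranges overlapped.

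**Figure D1:**
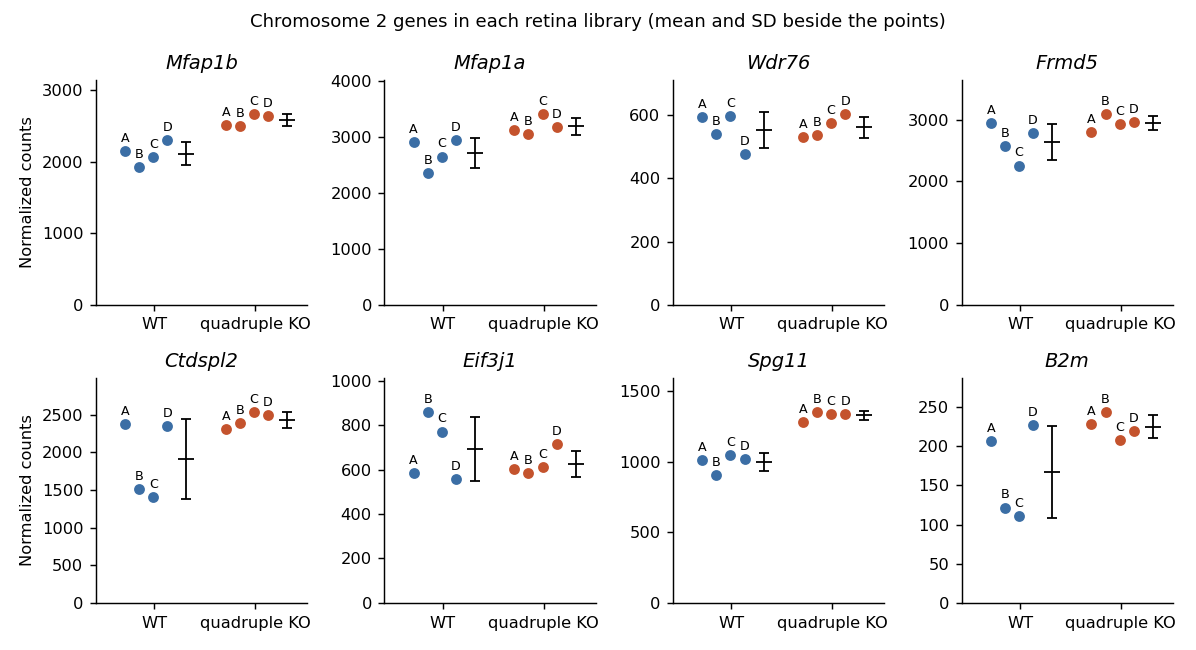
Normalized counts (y axis, from 0) of the 8 genes in each WT (blue) and quadruple KO (red) library, with the library letter above each point and the mean with its SD at the right of each group. Mfap1b, Mfap1a and Spg11 have no overlap between the genotypes. Mfap1b and Spg11 were chosen for their difference between these same libraries, and Mfap1a is not independent of Mfap1b. Of all genes tested, 6.16% were higher without overlap. The spread of Ctdspl2 and B2m in WT comes from 2 low libraries, WT B and WT C.

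Spg11 had the steadiest values of the 8 genes, with a coefficient of variation of 6.3% in WT and 2.3% in quadruple KO. Spg11 was put in the group for its difference between these same libraries, so this rank and the values below are a description only. WT A to D had 1010, 905, 1048 and 1023 normalized counts, and quadruple KO A to D had 1285, 1350, 1342 and 1342. All quadruple KO libraries lay above all WT libraries, and WT B and WT C did not stand together on one side of WT A and WT D. The means were 997 ± 62.8 and 1330 ± 30.1 (SD, n = 4 each), which is 0.42 on the log2 scale (SE 0.07). With WT A and WT D alone it was 0.39, so that the quadruple KO mean was 130.8% of the WT mean in place of 133.4%.

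Eif3j1, whose exons overlap those of Spg11, did not share this pattern. Its WT libraries had 584, 857, 771 and 556 normalized counts and its quadruple KO libraries 601, 585, 610 and 713. WT B and WT C were the highest libraries, and the genotypes overlapped. The log2 fold change of -0.12 (SE 0.15) did not pass the test (limma adjusted p = 0.62), and it turned to 0.13 with WT A and WT D alone (limma adjusted p = 0.59).

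Eif3j1 has a paralog of its own on another chromosome, Eif3j2, which was named after its values were seen, and 37.6% of the 75-base windows of the Eif3j1 transcript were found in it. Eif3j2 had 713, 349, 371 and 731 normalized counts in WT A to D and 730, 775, 830 and 785 in quadruple KO A to D. WT B and WT C were thus low for Eif3j2 and high for Eif3j1. The share of Eif3j2 in the sum of both was 29.0% in WT B and 32.5% in WT C, and between 52.4% and 57.6% in the other 6 libraries. The sum itself lay between 1142 and 1297 in WT and between 1330 and 1498 in quadruple KO. As in the Mfap1 sum, the genotypes did not overlap, and the log2 ratio was 0.19. This sum was not tested and is a description only. In contrast to the Mfap1 pair, the division between the Eif3j genes moved with the libraries that stand apart, and the part of read assignment in this was not tested.

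**Figure D2:**
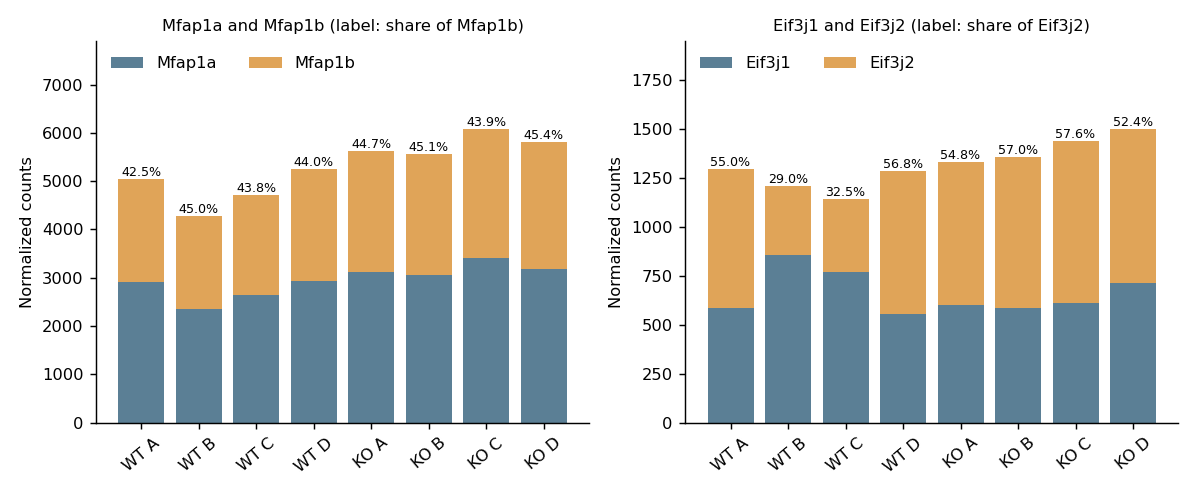
Stacked normalized counts (y axis, from 0) of Mfap1a with Mfap1b and of Eif3j1 with Eif3j2 in each library (x axis), with the share of the upper gene above each bar. The share of Mfap1b stays between 42.5% and 45.4% in all 8 libraries, whereas that of Eif3j2 falls to 29.0% and 32.5% in WT B and WT C.

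B2m, on the other side of Spg11, had 207, 121.7, 111 and 227 normalized counts in WT A to D and 228, 243, 208 and 219 in quadruple KO A to D. Only WT B and WT C were low, at 53.6% of the mean of WT A and WT D, and the other 6 libraries overlapped. The log2 fold change of 0.49 (SE 0.23) was the largest of the 8 genes with all WT libraries but did not pass the test (limma adjusted p = 0.30), and it was 0.05 with WT A and WT D alone (limma adjusted p = 0.88). Microglial markers, which could mark cells rich in MHC class I, were all detected, and their summed level was 501 to 743 normalized counts in WT and 543 to 586 in quadruple KO. The single markers, named after their values were seen, went in different directions. Cx3cr1, P2ry12, C1qa and Csf1r had log2 fold changes of 0.41, 0.63, -0.38 and -0.40 (limma adjusted p = 0.30, 0.34, 0.37 and 0.34). With WT A and WT D alone these were 0.33, -0.10, -0.07 and 0.02. WT B and WT C were low for P2ry12, as for B2m, and high for C1qa and Csf1r. The part of microglia in the level of B2m was not tested.

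Ctdspl2 behaved in the same way. WT A and WT D had 2381 and 2347 normalized counts, WT B and WT C only 1515 and 1400, and the quadruple KO libraries 2310, 2382, 2529 and 2490. The WT mean of 1911 ± 525 had a wide error for this reason, against 2428 ± 100 in quadruple KO (SD, n = 4 each). This difference was 0.39 on the log2 scale (SE 0.17, limma adjusted p = 0.30) and fell to 0.04 without WT B and WT C (limma adjusted p = 0.80).

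Frmd5 had 2951, 2572, 2257 and 2777 normalized counts in WT A to D and 2807, 3093, 2938 and 2960 in quadruple KO A to D. The genotypes overlapped, and WT B and WT C were again the lowest libraries. Its log2 fold change was 0.17 (SE 0.09, limma adjusted p = 0.33) with all WT libraries and 0.04 with WT A and WT D alone (limma adjusted p = 0.78).

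Wdr76, which starts next to Mfap1a, had 596, 542, 598 and 479 normalized counts in WT and 531, 537, 575 and 605 in quadruple KO. The groups overlapped almost fully, with means of 554 ± 56.5 and 562 ± 34.5 (SD, n = 4 each). On the log2 scale the difference was 0.02 (SE 0.10, limma adjusted p = 0.89), and 0.07 with WT A and WT D alone (limma adjusted p = 0.81). Of the pair of genes transcribed from the short stretch shown above, Mfap1a had groups that did not overlap and Wdr76 had groups that did, and the difference between them was not tested.

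**Figure D3:**
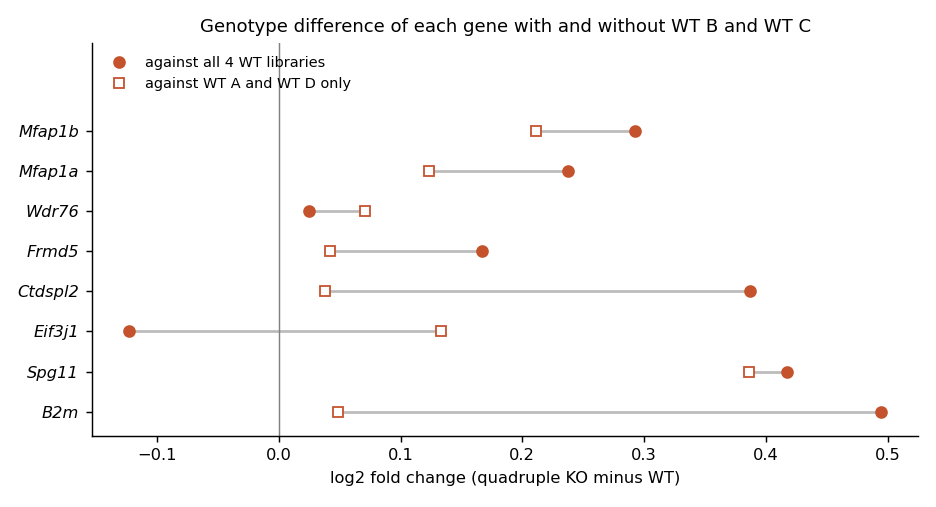
log2 ratio of quadruple KO to WT (x axis) for each of the 8 genes (y axis, in chromosome order), with all 4 WT libraries (filled circles) and with WT A and WT D alone (open squares). Spg11 moves little, from 0.42 to 0.39, Ctdspl2 and B2m drop to 0.04 and 0.05, and Eif3j1 changes sign. Spg11 and Mfap1b were chosen for their difference between these same libraries.

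The test over all genes called 77 of 17636 genes at a limma adjusted p under 0.05, a share of 0.437%. Of the 6 members other than Mfap1b and Spg11, 0 were called, and 1, Mfap1a, had an unadjusted p under 0.05, which 16.6% of all genes had. The value of Mfap1a is not independent of that of the chosen Mfap1b. With WT A and WT D alone 0.527% of all genes were called, and again 0 of these 6. WT B and WT C were both lower than WT A and WT D in 4 of the 6 genes, Mfap1a, Frmd5, Ctdspl2 and B2m, and in 35.8% of all genes tested. They were both higher in Eif3j1 and in 35.1% of all genes. Mfap1b also had WT B and WT C below WT A and WT D, whereas Spg11 did not.

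The surroundings were read from every gene of the table on chromosome 2 in the 3 Mb from 120 Mb on. Of these 49 genes 48 passed the minimum mean, and of the 46 other than Mfap1b and Spg11 0 were called by limma, with 5 at an unadjusted p under 0.05. Over all genes tested these shares were 0.437% and 16.6%. Among the 40 genes that are not members, 18 had higher and 22 lower values in quadruple KO, with a median log2 fold change of -0.03. Of these 40, 3 had every quadruple KO library above every WT library, or 7.5%, close to the 6.16% of all genes. In 1 of the 40 every quadruple KO library lay below every WT library, beside 3.58% of all genes. The median with WT A and WT D alone was 0.03. Among the 48 genes, Spg11 had the highest log2 fold change in that comparison, followed by Catsper2 at 0.31. Spg11 was put in the group for its difference between these same libraries, so its rank is a description only.

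Hypk, a huntingtin-interacting chaperone and the tested gene next to Mfap1b on the other side from Mfap1a, had 570 ± 76.3 normalized counts in WT and 621 ± 40.2 in quadruple KO (SD, n = 4 each). The difference of 0.13 on the log2 scale did not pass the test (limma adjusted p = 0.49) and was 0.03 with WT A and WT D alone. The next 6 genes, like Catsper2 and Serf2, were named after their values were seen. Adal and Serinc4 had log2 fold changes of 0.45 and 0.32 (limma adjusted p = 0.30 for both), larger than that of Mfap1b. Their genotypes overlapped, WT B and WT C were the lowest libraries in both, and the values were 0.17 and 0.15 with WT A and WT D alone. Zscan29, Ppip5k1 and Slc30a4 had all quadruple KO libraries above all WT libraries, with log2 fold changes of 0.23, 0.12 and 0.18 and limma adjusted p of 0.30, 0.36 and 0.30. With WT A and WT D alone these were 0.24, 0.05 and 0.06. Gm14021, a processed pseudogene inside Frmd5, had 42.0 ± 5.44 normalized counts in WT and 21.2 ± 7.24 in quadruple KO, a log2 fold change of -1.003 (limma adjusted p = 0.30) that was -1.09 with WT A and WT D alone.

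**Figure D4:**
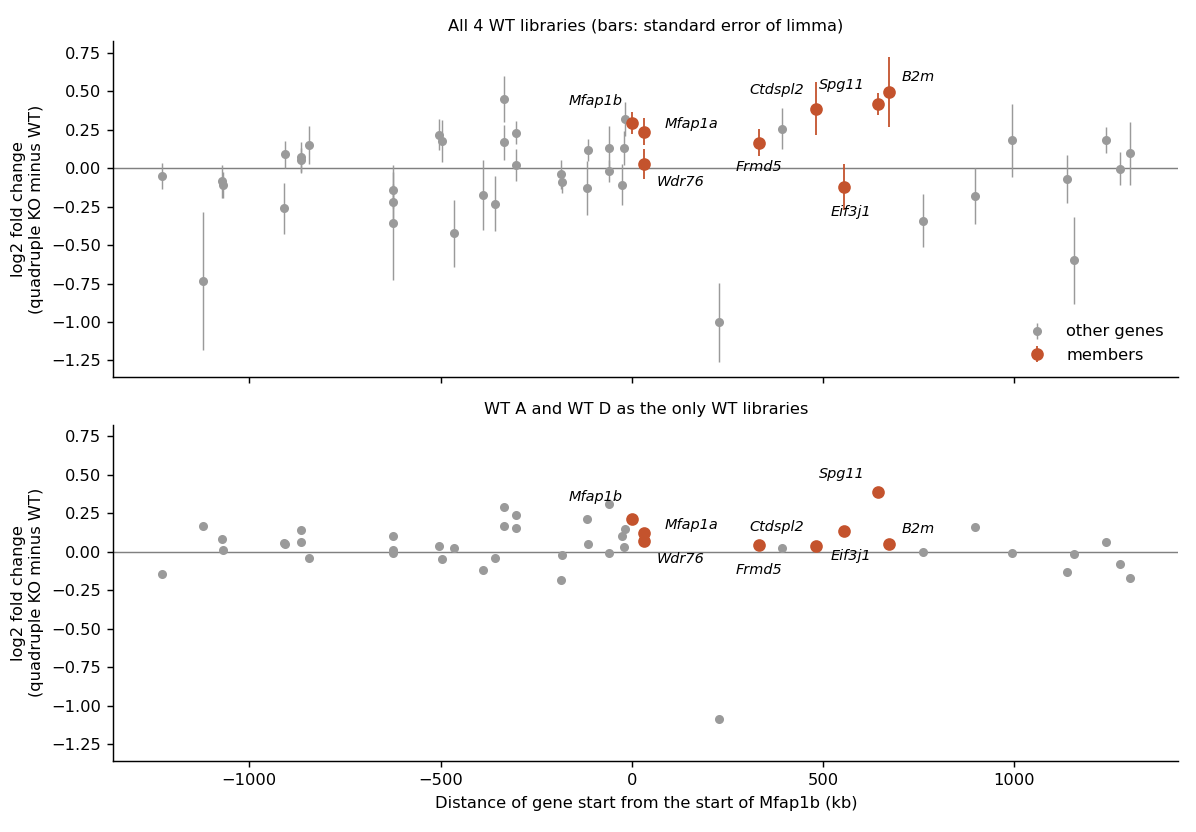
log2 ratio of quadruple KO to WT (y axis) for the 48 tested genes in the 3 Mb interval of chromosome 2, by the distance of the gene start from the start of Mfap1b in kb (x axis). With all WT libraries (top, bars are the standard error from limma) several of the 8 genes (red) lie above 0. With WT A and WT D alone (bottom) Spg11 stands above its neighbours while the other red genes lie between 0.04 and 0.21. Spg11 and Mfap1b were chosen for their difference between these same libraries.

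Levels between the genes can be compared only per length. Per kb of the reference transcript, Mfap1a and Mfap1b had 645 ± 65.3 and 627 ± 48.3 normalized counts in WT and 759 ± 36.7 and 767 ± 24.8 in quadruple KO (SD, n = 4 each), so on this length neither paralog exceeded the other beyond its spread. Per kb of all annotated exons Mfap1a had the higher mean in both genotypes, with 694 against 584 in quadruple KO. Spg11 had 130 ± 8.18 per kb in WT, within the spread of Wdr76 at 130 ± 13.3 and Eif3j1 at 128 ± 26.8, and 173 ± 3.92 in quadruple KO. B2m had 154 ± 54.2 and 207 ± 13.6 per kb. Frmd5 at 1139 ± 129 and Ctdspl2 at 778 ± 214 in WT led on this scale, but their annotated exons together are 8480 and 14802 bases long, and the order depends on the length used. Per kb of all annotated exons, the WT means were 591 normalized counts for Mfap1a, 478 for Mfap1b, 311 for Frmd5, 129 for Ctdspl2, 121.1 for Spg11, 99.8 for Eif3j1, 79.2 for B2m and 60.6 for Wdr76.

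Other genes of the same pathways were read from fixed lists, and limma called 0 of them. Over all genes tested, limma called 0.437%, and 16.6% had an unadjusted p under 0.05. Of 7 spliceosomal B complex partners of MFAP1, 5 were higher and 2 lower, with a median log2 fold change of 0.10, compared with -0.0002 over all genes tested, and 1 had an unadjusted p under 0.05. With WT A and WT D alone this median was 0.07, compared with 0.01 over all genes. The kinase gene Prpf4b and Ik, the most abundant of them, had log2 fold changes of 0.17 and 0.30 (limma adjusted p = 0.32 and 0.30), which were 0.04 and 0.09 with WT A and WT D alone. Of 10 microfibril and elastic fibre genes, 5 were higher and 5 lower, with a median of -0.04 in both comparisons and 3 at an unadjusted p under 0.05. Mfap3l and Mfap3, the most abundant, had 0.20 and 0.43 (limma adjusted p = 0.32 and 0.30), and 0.01 and 0.11 with WT A and WT D alone.

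For Spg11, the list of spastizin and the 4 subunits of AP-5 had 2 genes higher and 3 lower. In this list 1 gene had an unadjusted p under 0.05, compared with 16.6% of all genes tested. The median log2 fold change was -0.07 and turned to 0.08 with WT A and WT D alone. Zfyve26, which encodes spastizin, had 0.07 (limma adjusted p = 0.76) and -0.05 with WT A and WT D alone. Ap5m1, the medium subunit, was above all WT libraries in all quadruple KO libraries, at 0.36 (limma adjusted p = 0.30), and at 0.09 with WT A and WT D alone. Of all genes tested, 6.16% were higher without overlap in this way. Of 11 genes of lysosome tubulation and re-formation, 6 were higher and 5 lower, with a median of 0.03 that turned to -0.03 with WT A and WT D alone. Of these 11, 3 had an unadjusted p under 0.05, beside the 16.6% of all genes. Clathrin heavy chain (Cltc) had 0.05 (limma adjusted p = 0.70), or -0.03 with WT A and WT D alone, and the kinesin Kif5b had -0.29 (limma adjusted p = 0.30), or -0.22 with WT A and WT D alone.

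Of 13 genes of the MHC class I pathway of B2m, limma called 0, and 3 were higher and 10 lower in quadruple KO. The median log2 fold change was -0.35, or -0.02 with WT A and WT D alone. In this list 3 had an unadjusted p under 0.05, compared with 16.6% of all genes tested. Both WT B and WT C exceeded WT A and WT D in 10 of the 13, compared with 35.1% of all genes tested, and were both below them in 0, whereas both were low for B2m. In the other 3, Tap1, Nlrc5 and Cd1d1, named after their values were seen, they did not stand on one side. Calreticulin (Calr) had a log2 fold change of 0.10 (limma adjusted p = 0.45), or 0.18 with WT A and WT D alone, and tapasin (Tapbp) -0.91 (limma adjusted p = 0.32), which was 0.10 with WT A and WT D alone. The heavy chains H2-D1 and H2-K1, named after their values were seen, had 0.02 and -0.35 (limma adjusted p = 0.90 and 0.33), and 0.10 and -0.02 with WT A and WT D alone.

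The lists of the remaining genes changed in sign or size with the WT libraries used. Their counts at an unadjusted p under 0.05 stand beside the 16.6% of all genes tested. Of 13 eIF3 genes, Eif3j2 included, 5 were higher and 8 lower, with 3 at an unadjusted p under 0.05. Their median log2 fold change was -0.04 and turned to 0.06 with WT A and WT D alone. The abundant subunits Eif3c and Eif3a had -0.11 and -0.07 (limma adjusted p = 0.47 and 0.58), and 0.04 and 0.01 with WT A and WT D alone. Of 4 small CTD phosphatases 2 were higher, with 0 at an unadjusted p under 0.05 and a median of -0.04, or 0.01 with WT A and WT D alone. Ctdsp2 and Ctdnep1 had -0.20 and 0.11 (limma adjusted p = 0.38 and 0.45), and 0.02 and 0.09 in the smaller comparison. Of 5 FERM domain genes 2 were higher, with 1 at an unadjusted p under 0.05 and a median of -0.01, or -0.12 without WT B and WT C. Frmd4b and Frmpd1 had -0.01 and 0.09 (limma adjusted p = 0.97 and 0.40), and 0.13 and 0.05 without WT B and WT C. Of 5 genes of the CUL4 ligase and WDR76 partners 3 were higher, with 1 at an unadjusted p under 0.05 and a median of 0.12, or 0.07 without WT B and WT C. Ddb1 and Cul4a had 0.12 and -0.06 (limma adjusted p = 0.32 and 0.72), and 0.08 and 0.10 without WT B and WT C.

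The genes whose values over the 8 libraries ran closest to those of Mfap1b and Spg11 were found by the root mean square distance between their centred log2 values, over 12630 genes that averaged 100 or more normalized counts. For Mfap1b these were Doc2b, Tlcd3b, Cnnm4, E430018J23Rik and Sp1, and Mfap1a took place 35 and Spg11 place 454. For Spg11 these were Rad9a, Aqp1, Rfx2, Rdh8 and Naglu, and Mfap1b took place 8 and Mfap1a place 136. Of the remaining members Frmd5 came closest to both, at place 1714 for Mfap1b and place 1951 for Spg11. These distances hold the genotype difference itself and share the libraries, and are a description only.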

How the data were processed

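Retinal total RNA of 4 WT and 4 quadruple KO samples was sequenced (strand-keeping kit), and libraries were grouped by their labels. The authors deposited normalized counts per gene and library: per the submitters' notes these are Salmon 1.5.2 estimates divided by normalization factors of DESeq2 1.32.0 (R 4.1.1), after Trim Galore 0.6.7 and STAR 2.7.9a on GRCm39. Salmon divides reads that fit several genes by estimation, which bears on the paralogs. The table also holds the authors' means, fold changes and p-values, and the latter were not used. Reads per library could not be recovered from the values, so depth and counting intervals are unknown.

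Here log2(normalized count + 1) was tested with limma 3.58.1 in R 4.3.3 (trend, no covariate) for 17636 genes with a mean of at least 10, with Benjamini-Hochberg adjustment over all of them and a threshold of 0.05. Fold changes on this scale understate low genes. The method was run on simulated data that had the same spread in every library, so that run does not cover libraries that stand apart, like WT B and WT C. Members and lists were chosen with earlier results of these data known. The text names the 8 members, the targeted genes, called interval genes, direct neighbours of Mfap1b and Spg11, the 2 most abundant genes of each uncalled list and the 5 closest profiles. Others are marked as chosen after their values were seen. Positions came from GENCODE on GRCm39, which held 17969 of 18058 identifiers, and sequences from that genome. Python 3.11.15, numpy 2.4.6, pandas 2.3.3, biopython 1.88 and matplotlib 3.10.9 were used.

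Alternatives were other scalings, filters, pseudocounts, moderation and weights, the letter as a block, each library left out, and WT A and WT D alone, which was added after seeing the data. Same-letter libraries had correlations of their deviations of -0.01, -0.11, 0.10 and 0.05, so the letters were not taken as pairs.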

Additional observations from a re-analysis of the deposited data

Results flagged for a closer look

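Spg11 in quadruple KO A, at 1285 normalized counts, lay apart from the other 3 quadruple KO libraries, which had 1342 to 1350. The gap took 0.870 of the range of the group, above Dixon's limit at the 95% level for 4 samples. It still lay above every WT library. Among 20 groups tested this was the only one set apart, and chance sets apart about 1 in 20 groups.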

How the results depend on the processing

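The number of genes called over the whole table was 77, rose to 143 with limma array weights, fell to 51 with the letter as a replicate block, and was 56 to 89 with one library left out. The 6 members other than Mfap1b and Spg11 were called in 0 of 19 alternatives each, and their smallest limma adjusted p was 0.083, for B2m without WT D. No other gene of the interval was called under any alternative either, and the block changed no call among them. The log2 fold change of Wdr76 turned to -0.0126 with array weights and ranged from -0.0432 (without WT D) to 0.0638 with one library left out, where it was also -0.0111 without quadruple KO D. That of Eif3j1 turned to 0.0713 with array weights and to 0.13 with WT A and WT D alone. The cause was not tested. Mfap1b stayed between 0.21 and 0.34 and Spg11 between 0.37 and 0.44, and the other directions held. Only 3 of 8 libraries correlated best with their own letter. The 4 libraries per genotype, of which 2 WT libraries stand apart, limit what small differences can be seen, and the depth in reads is unknown.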
